A study of Mus musculus with 8 samples.

Results

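The replication-dependent histone genes supply the histone proteins that package newly copied DNA. They were taken as every gene of the deposited count table whose symbol follows the current naming pattern of the clustered genes (H1f1 to H1f5, and H2ac, H2bc, H3c or H4c followed by a number), which gave 67 of 25413 genes. The 67 comprised 5 genes of the linker histone H1, 18 of H2A, 19 of H2B, 12 of H3 and 13 of H4. Among the H2B entries, H2bc26 is a processed pseudogene without a coding sequence in the annotation used here. On the mouse build GRCm39 used by the files, 53 of them lie on chromosome 13, 10 on chromosome 3, 3 on chromosome 11 and 1 on chromosome 6, and 63 have a single exon in the annotation used here. No expression value entered this choice.

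The core histones H2A, H2B, H3 and H4 form the octamer around which DNA is wrapped, and H1 binds the linker DNA between octamers. Transcripts of the replication-dependent genes accumulate in S phase and are the known exception among animal mRNAs in that they normally end in a conserved stem-loop instead of a poly(A) tail. The stem-loop is bound by the protein encoded by Slbp, and the tail-less end is made by the U7 small nuclear ribonucleoprotein with the CPSF73 nuclease. Poly(A)-tailed forms of some of these genes are known, mainly from cells that have left the cell cycle or are differentiating. The libraries compared here were made from poly(A)-selected RNA, so the values below are levels in poly(A)-selected RNA and not total histone mRNA.

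The study grew mouse cells of mammary epithelial origin as spheroids, in which cells form rounded 3-dimensional aggregates, and sequenced their mRNA. EpH4-AS cells, labelled with the genotype AS-transformed, were either exposed to PM2.5, meaning fine particles of polluted air, or left as untreated controls, and so were EpH4 cells, labelled wild type. Each of the 4 groups had 2 libraries, the labels put all 8 in 1 batch, and they give neither the dose nor the duration of exposure. Each line is a single cell line, so a difference between EpH4-AS and EpH4 is a difference between these lines. The labels do not state that a group's libraries were grown separately, so a p-value here reflects only library-to-library spread, part or all of which may be technical.

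Total counts per library ran from 15393256 to 27765982, and 13716 genes passed the filter on low counts, among them 51 of the 67 histone genes (3 H1, 15 H2A, 12 H2B, 10 H3 and 11 H4). The 16 others were too low to test, and H2ac1 had no count in any library. Of 12 epithelial marker genes, 1 per group averaged at least 1 CPM (reads of a gene relative to all counted reads of its library). It was Krt7 in both EpH4-AS groups and Krt14 in both EpH4 groups, so no epithelial marker reached this level in both lines. Summed levels of the 12 were 2.04 and 2.44 CPM in EpH4-AS with PM2.5 and 2.35 and 2.78 CPM in untreated EpH4-AS. They were 9.64 and 10.6 CPM in EpH4 with PM2.5 and 4.69 and 4.57 CPM in untreated EpH4. Of 12 mesenchymal markers, 11 or 12 reached that level in every group, so the epithelial cell type on the labels was not matched by these markers. Summed mesenchymal markers were 14317 and 14738 CPM in EpH4 with PM2.5, against 16193 and 15997 CPM in untreated EpH4, and their part in the results was not tested. Fn1 gave most of each of these EpH4 sums. Because the RNA came from whole spheroids, fewer cells of a kind and less RNA per cell cannot be told apart.

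The stem-loop is shown for members whose values are described below or whose loop differs, because it is the element that sets this gene set apart from other mRNAs. Transcripts of 43 of the 53 members with an annotated 3′ UTR held a match to the stem-loop, a 6-base stem, a 4-base loop and the complementary stem, and in all 43 it lay within 100 bases of the stop codon. There were 6 distinct stem-loop sequences. The capitals mark the stem and loop, and the lower-case letters are the bases on either side, read from GENCODE M21 transcripts on GRCm38.
H1f2: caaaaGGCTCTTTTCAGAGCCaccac
H2ac6: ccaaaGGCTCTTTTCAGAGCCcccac
H4c9: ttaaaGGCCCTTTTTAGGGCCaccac
H4c18: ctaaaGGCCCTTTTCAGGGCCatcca
H2bc12: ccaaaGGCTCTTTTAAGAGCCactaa
H2ac20: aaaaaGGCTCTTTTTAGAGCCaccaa
H4c11: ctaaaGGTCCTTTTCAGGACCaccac

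The form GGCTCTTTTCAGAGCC was the most frequent, in 26 members, and the H4 members printed above carry a stem of other letters. H2bc4 and H2bc21 had no match in their annotated transcripts. The annotated 3′ UTR reached 200 bases or more in 24 members, was shorter in 29 and was not annotated in 14. With that limit, H2bc8 at 200 bases fell in the longer class and H2ac8 at 199 bases in the shorter one. The polyadenylation signal AATAAA stood in the last 50 bases of the transcript in 14 members, 11 of them with the longer 3′ UTR. The 24 members with the longer 3′ UTR held 71.5% and 72.2% of all histone counts in EpH4 with PM2.5.

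Many members are near copies of each other. In 34 of the 67, at least 50% of all 50-base windows of the transcript occurred also in a transcript of another gene, which need not be a member. H2ac18 and H2ac19 shared an identical coding sequence, as did H4c17 and H4c18. The sources used here do not state how reads matching several copies were assigned, so values of single members of such pairs are uncertain and sums over a family or pair are given beside them.

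Summed over all 67 genes, histone transcripts in EpH4-AS spheroids with PM2.5 stood at 1.04 times those in untreated EpH4-AS, and in EpH4 spheroids with PM2.5 at 2.01 times those in untreated EpH4. The sums were 133 and 120 CPM in EpH4-AS with PM2.5, against 127 and 117 CPM in untreated EpH4-AS. They were 271 and 233 CPM in EpH4 with PM2.5, against 133 and 117 CPM in untreated EpH4. Both EpH4 libraries with PM2.5 stood above the other 6 libraries, whose ranges overlapped.

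By family, the EpH4-AS ratio of PM2.5 to untreated was 1.60 for H4, 1.15 for H2A, 1.08 for H3, 1.04 for H1 and 0.94 for H2B. The H4 sums in this line were small, at 7.53 and 5.89 CPM with PM2.5, against 4.28 and 4.09 CPM untreated. In EpH4 the same ratio was 2.73 for H1, 2.41 for H2B, 1.81 for H3, 1.78 for H4 and 1.69 for H2A, and in each family both exposed libraries were above both untreated ones. No test was made on these sums.

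**Figure D1:**
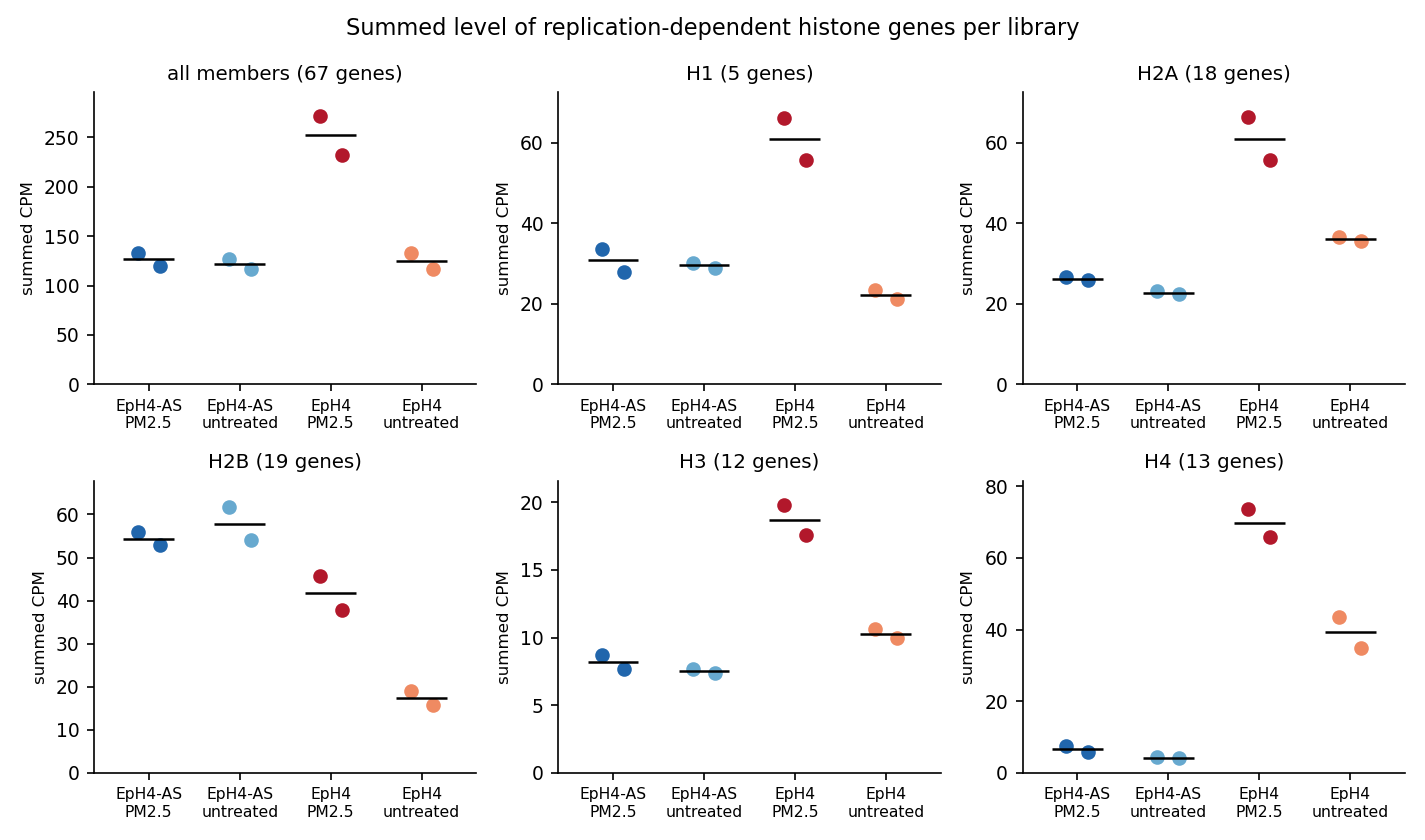
Summed level of each histone family in CPM, by group, with 1 point per library and a bar at the group mean. In EpH4 the 2 libraries with PM2.5 lie above the 2 untreated ones in every family, and H4 is low in all 4 EpH4-AS libraries, between 4.09 and 7.53 CPM.

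The first comparison asked which histone genes changed with PM2.5 in EpH4. At an adjusted p below 0.05 in edgeR's quasi-likelihood test, 27 of the 51 tested members rose and 0 fell, and none was lower at an unadjusted p below 0.05 or in DESeq2 or limma. H2ac12 was called lower in 2 other edgeR fits, without the filter on low counts (log2 fold change -1.89, adjusted p = 0.0352) and without untreated EpH4 replicate 1 (-2.92, adjusted p = 0.00625). Over all 13716 tested genes, 14.3% were called higher and 12.9% lower. The median log2 fold change of the tested members was 1.04, against 0.00 over all tested genes, and 1.01 with H2ac10, which had no count in a group, set to its bound. DESeq2's Wald test called 16. Reads of mitochondrial genes made up 4.23% and 5.03% of counts in EpH4 with PM2.5, against 2.72% and 2.21% in untreated EpH4, and the part of this shift in the result was not tested. Over all 67, both exposed libraries were above both untreated ones in 46 members and below them in 1, against 25.5% and 23.4% of the 19932 genes with a count.

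All 3 tested linker histone genes rose. H1f2, on chromosome 13 at 23922791 to 23924350, had 55.2 and 46.7 CPM (TMM-normalised, as for all single genes below) in EpH4 with PM2.5, against 19.9 and 17.9 CPM in untreated EpH4. Its log2 fold change was 1.43 ± 0.10 (SE, edgeR adjusted p = 7.1e-07). H1f4 had 8.42 and 7.03 CPM with PM2.5, against 2.54 and 2.31 CPM untreated, a log2 fold change of 1.67 ± 0.19 (edgeR adjusted p = 3.6e-05). In both genes the groups were far apart relative to their spread. H1f3 had 2.51 and 1.93 CPM with PM2.5, against 0.836 and 1.03 CPM untreated, and rose by 1.25 ± 0.26 (SE, log2 scale, edgeR adjusted p = 0.0025). The transcript of H2bc6 overlaps H1f4 on the same strand, so reads in the shared stretch cannot be told apart.

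Of 15 tested H2A genes, 9 rose. H2ac6 had 10.6 and 6.45 CPM with PM2.5, against 1.78 and 1.43 CPM untreated, a log2 fold change of 2.40 ± 0.25 (SE, edgeR adjusted p = 1.7e-05). The identical copies H2ac18 and H2ac19 on chromosome 3 summed to 30.2 and 29.6 CPM with PM2.5, against 17.5 and 16.9 CPM untreated. Both copies were higher with PM2.5 in each library. In a fit on summed copies, an alternative chosen after seeing the data, this pair rose by 0.80 on the log2 scale (edgeR adjusted p = 1.7e-05). Counted separately, H2ac18 had 17.8 and 14.5 CPM with PM2.5, against 10.4 and 7.60 CPM untreated (log2 fold change 0.84 ± 0.18, edgeR adjusted p = 0.0042). H2ac19 had 12.4 and 15.1 CPM with PM2.5, against 7.09 and 9.35 CPM untreated (0.75 ± 0.15, edgeR adjusted p = 0.0024). H2ac18 missed the threshold in DESeq2 (adjusted p = 0.319) and in the log2(RPKM + 0.1) limma fit (adjusted p = 0.203). H2ac25, on chromosome 11, differed from these genes in its values. It had 11.6 and 10.6 CPM with PM2.5, against 11.8 and 14.2 CPM untreated, a log2 fold change of -0.22 ± 0.13 that did not pass the test (edgeR adjusted p = 0.22). In the annotation H2ac25 overlaps the gene Trim17, and the part of this overlap in its values was not tested. H2ac12 was near the detection limit in EpH4, with 0.152 and 0 CPM with PM2.5 and 0 and 0.636 CPM untreated.

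Of 12 tested H2B genes, 9 rose. H2bc4, on chromosome 13 at 23868182 to 23876891, had 11.8 and 10.9 CPM with PM2.5, against 1.71 and 1.87 CPM untreated. Its log2 fold change was 2.67 ± 0.16 (SE, edgeR adjusted p = 2.6e-07), and without it the H2B sum still had a ratio of 1.96. H2bc6 had 2.67 and 1.93 CPM with PM2.5, against 0.691 and 0.477 CPM untreated, a log2 fold change of 1.96 ± 0.30 (edgeR adjusted p = 0.00036). Its share of gene reads outside annotated exons was 78.5% and 79% with PM2.5 and 90% and 94.6% untreated. H2bc13 had 1.83 and 1.11 CPM with PM2.5, against 0.509 and 0.239 CPM untreated, and rose by 1.95 ± 0.40 (log2 scale, edgeR adjusted p = 0.0024). H2bc21, on chromosome 3, had 12.4 and 12.5 CPM with PM2.5, against 10.1 and 8.75 CPM untreated. Its rise of 0.40 ± 0.12 on the log2 scale (edgeR adjusted p = 0.024) was much smaller than that of H2bc4. H2bc7 had 0.419 and 0.411 CPM with PM2.5, against 0 and 0.159 CPM untreated, so its call (edgeR adjusted p = 0.046) rests on few reads.

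Of 10 tested H3 genes 2 rose, and of 11 tested H4 genes 4 rose. No H3 gene averaged 5 CPM in a group, and the 2 that rose are named here although they were chosen after their values were seen. H3c4 had 3.39 and 2.79 CPM with PM2.5, against 0.982 and 0.716 CPM untreated (log2 fold change 1.85 ± 0.27, edgeR adjusted p = 0.00027). H3c11 had 2.86 and 1.73 CPM with PM2.5, against 0.400 and 0.239 CPM untreated (2.81 ± 0.42, edgeR adjusted p = 0.00035). In both, every exposed library was above every untreated one. For H3c11, 87.6% of the 50-base windows occurred also in a transcript of another gene, against 24.8% for H3c4, so its values depend more on read assignment. H4c9, on chromosome 13 at 22224806 to 22225532, had 50.3 and 47.5 CPM with PM2.5, against 30.9 and 23.4 CPM untreated. It rose by 0.85 ± 0.10 on the log2 scale (edgeR adjusted p = 4.6e-05). H4c18 had 5.56 and 5.22 CPM with PM2.5, against 3.05 and 2.43 CPM untreated (0.97 ± 0.21, edgeR adjusted p = 0.0038), and DESeq2 did not call it (adjusted p = 0.0525). H4c14, on chromosome 3, had 7.28 and 5.26 CPM with PM2.5, against 4.36 and 4.30 CPM untreated (0.54 ± 0.18, edgeR adjusted p = 0.037). Per length, H4c9 had the highest level of the 16 histone genes plotted by library in untreated EpH4, with 35.5 and 26.3 RPKM, and H1f2 had 10.7 and 9.37 RPKM there.

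Leaving out 1 library at a time ended 3 of these named calls in EpH4. For H4c14 the adjusted p was 0.377 without EpH4 PM2.5 replicate 1, for H2bc7 it was 0.222 without untreated EpH4 replicate 1, and for H2bc21 it was 0.143 without untreated EpH4 replicate 2. H2bc21 and H4c14 also missed the threshold in DESeq2 (adjusted p = 0.229 and 0.287). The count of members called ran from 20 to 28 over the 8 such fits.

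**Figure D2:**
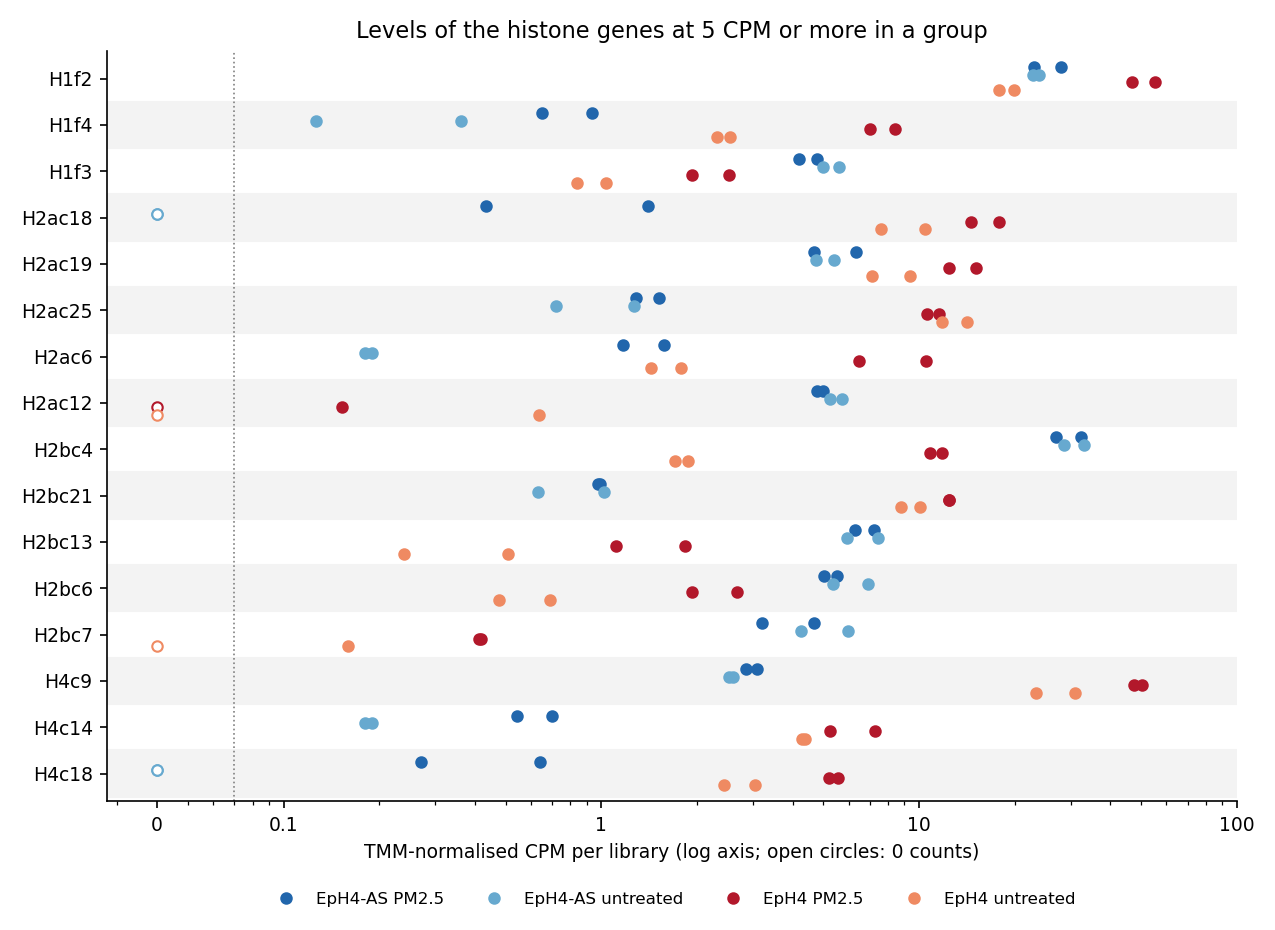
Level of the 16 histone genes that averaged at least 5 CPM in a group, at most 5 per family, as TMM-normalised CPM by library on a log axis. H1f2 and H4c9 are the highest in EpH4, H2bc4 the highest in EpH4-AS, and H2ac18 and H4c18 lie at 0 in both untreated EpH4-AS libraries.

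The second comparison asked the same in EpH4-AS. Here 6 of 51 tested members rose and 0 fell, while 6.39% of all tested genes were called higher and 4.75% lower. The 6 were H2ac6, H2ac18, H2ac22, H3c4, H4c12 and H4c18. The median log2 fold change of tested members was 0.45, and 0.28 with the genes that had no count in a group set to their bound. It was 0.075 without EpH4-AS PM2.5 replicate 1 and 0.76 without untreated EpH4-AS replicate 2. Both exposed libraries were above both untreated ones in 22 of the 67 members and below them in 7, against 22.4% and 21.2% of the genes with a count. DESeq2 called 0 members at an adjusted p below 0.05, with 12 higher and 0 lower at an unadjusted p below 0.05. In edgeR 0 were lower at an unadjusted p below 0.05, while limma called 1 lower, H2bc11 (named after its values were seen), in both of its fits.

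The 6 calls all rest on genes with at most 6 counts over both untreated EpH4-AS libraries. H2ac6 had 1.17 and 1.57 CPM with PM2.5, against 0.181 and 0.190 CPM untreated, or 49 against 6 counts. That is a ratio of 7.45 with a 95% counting interval of 3.19 to 21.3 (log2 fold change 2.86 ± 0.62, edgeR adjusted p = 0.0096). H3c4 had 20 counts with PM2.5, against 2 untreated, a ratio of 9.12 with an interval of 2.21 to 80.5. H2ac18 had 32 counts with PM2.5 and 0 untreated, which against a floor of 3 counts over the group is at least 9.73-fold higher. H4c18 had 16 counts against 0 (at least 4.86-fold higher), H4c12 had 10 against 0 (at least 3.04-fold) and H2ac22 had 9 against 0 (at least 2.74-fold). These intervals and floors cover counting error only. Each of the 6 calls ended in the fit without untreated EpH4-AS replicate 1, where 0 members were called, and the adjusted p ran up to 0.186 for H2ac22. Leaving out any other EpH4-AS library also ended some or all of the 6 calls.

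Counts of H2ac18 and H4c18 depend on how reads were divided between identical copies. H2ac18 plus H2ac19 summed to 6.07 and 6.78 CPM with PM2.5, against 5.42 and 4.74 CPM untreated, and the pair did not pass the test (log2 fold change 0.34, edgeR adjusted p = 0.136). H4c17 plus H4c18 summed to 1.11 and 0.380 CPM with PM2.5, against 0.181 and 0.190 CPM untreated, and did not pass it either (1.95, edgeR adjusted p = 0.077). With identical copies summed, 4 of 50 units were called in EpH4-AS.

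H2bc4 and H1f2, the members with the most counts in EpH4-AS, did not pass the test, and neither did the other members given below. H2bc4 had 32.4 and 26.9 CPM with PM2.5, against 33.1 and 28.6 CPM untreated, and the groups overlapped (log2 fold change -0.06 ± 0.10, edgeR adjusted p = 0.78). H1f2 had 27.9 and 23 CPM with PM2.5, against 23.8 and 22.8 CPM untreated (0.12 ± 0.11, edgeR adjusted p = 0.54). H4c9 had 2.86 and 3.09 CPM with PM2.5, against 2.59 and 2.53 CPM untreated (0.22 ± 0.25, edgeR adjusted p = 0.65). In H1f2 and H2ac19 the libraries of the groups also overlapped. H1f3 had 4.79 and 4.18 CPM with PM2.5, against 5.6 and 5.0 CPM untreated (-0.24 ± 0.19, edgeR adjusted p = 0.49). H1f4 (1.65 ± 0.54, edgeR adjusted p = 0.065) and H4c14 (1.71 ± 0.60, edgeR adjusted p = 0.087) had large fold changes at levels under 1 CPM that missed the threshold. None of the 12 tested H2B genes was called in EpH4-AS by edgeR, 1 was higher at an unadjusted p below 0.05, DESeq2 called 0, and limma called H2bc11 lower.

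Of the 27 members called in EpH4, 5 were also called in EpH4-AS, which is 18.5% of the EpH4 calls and 83.3% of the 6 EpH4-AS calls. A further 22 passed the threshold in EpH4 and not in EpH4-AS, which does not show by itself that the effect differs. The test of the difference itself called 2 members as more positive in EpH4-AS and 10 as less positive, where 7.6% and 6.49% of all tested genes were called. By family the 10 were 6 of 12 H2B, 2 of 3 H1 and 2 of 15 H2A genes, with 0 H3 and 0 H4 genes. At an unadjusted p below 0.05 no H3 and 1 H4 gene had such a difference, and DESeq2 called neither family, while limma called up to 2 H3 and 1 H4 genes.

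Among these 10, 4 remained called when any of the 8 libraries was left out. The difference was -2.73 ± 0.20 for H2bc4 (SE, log2 scale, edgeR adjusted p = 3.6e-06) and -1.30 ± 0.15 for H1f2 (edgeR adjusted p = 0.00012). For H2bc6 it was -2.18 ± 0.37 (edgeR adjusted p = 0.0014), and for H1f3 -1.50 ± 0.32 (edgeR adjusted p = 0.0070). All 4 were higher with PM2.5 in EpH4, and in EpH4-AS none of them passed the test. The other 6 were H2bc13 (-1.93), H2ac4 (-1.62), H2bc3 (-2.45), H2ac13 (-3.13), H2bc8 (-1.41) and H2bc7 (-2.73). Each lost its call in at least 2 of the 8 fits that left out a library, with adjusted p up to 0.382 for H2ac13 without untreated EpH4-AS replicate 1. The 2 called as more positive in EpH4-AS were H2ac18 (edgeR adjusted p = 0.035) and H4c18 (edgeR adjusted p = 0.044), both at 0 counts in untreated EpH4-AS. With identical copies summed neither pair was called, and the difference turned negative for H2ac18 plus H2ac19 (-0.46, edgeR adjusted p = 0.075) and was 1.04 for H4c17 plus H4c18 (edgeR adjusted p = 0.38). In that fit 0 of 50 units were called more positive in EpH4-AS and 10 less positive.

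**Figure D3:**
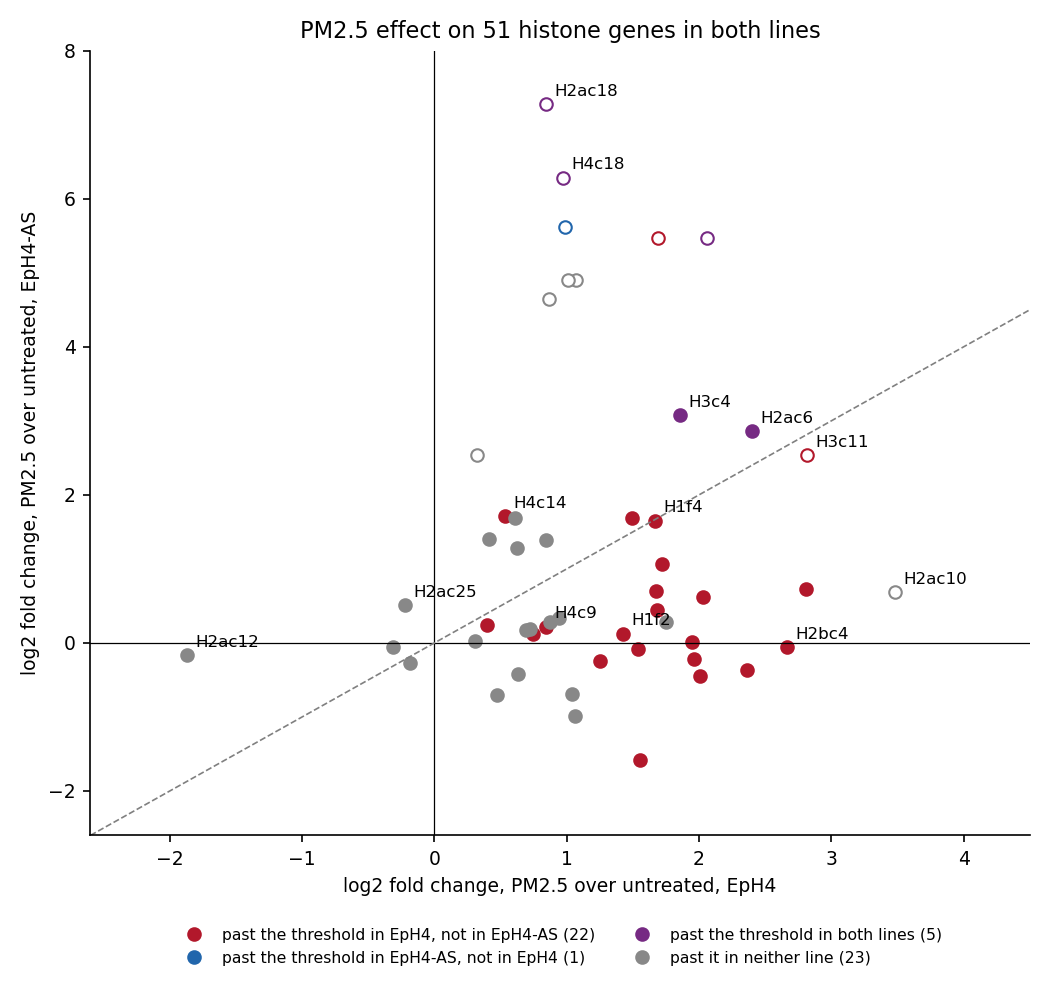
Log2 fold change of PM2.5 over untreated in EpH4-AS against that in EpH4 for the 51 tested histone genes, coloured by the line in which they passed the threshold, with open points for genes without a count in a group and a dashed line where the effects are equal. Of the points, 22 passed in EpH4 and not in EpH4-AS, 5 in both, 1 in EpH4-AS and not in EpH4, and 23 in neither.

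The third comparison set EpH4-AS against EpH4. In untreated spheroids 14 members were higher and 27 lower in EpH4-AS, of 51 tested, while 43.6% of all tested genes were called higher and 45.7% lower. With PM2.5, 9 were higher and 34 lower, against 43.5% and 45.5% of all tested genes. The median log2 fold change of tested members was -1.57 untreated and -2.03 with PM2.5, against medians over all tested genes of -0.05 and -0.04. With genes that had no count in a group at their bound, the untreated median was -1.42. Summed levels of 7 adipocyte markers were 1472 and 1433 CPM in untreated EpH4-AS, against 171 and 166 CPM in untreated EpH4, and those of 8 immune markers were 40.2 and 38.8 CPM, against 177 and 175 CPM. Summed mesenchymal markers were 7447 and 7586 CPM in untreated EpH4-AS, against 16193 and 15997 CPM in untreated EpH4. A few genes carried these sums. Fn1 had 332422 and 301527 counts in untreated EpH4, against 55561 and 50393 in untreated EpH4-AS. Vim, Zeb1, Twist1 and Col3a1 were higher in untreated EpH4-AS, and the other mesenchymal markers were lower. Cd68 gave most of the immune sum, and Lpl and Pparg gave most of the adipocyte sum in untreated EpH4-AS. Mitochondrial genes made up 0.219% and 0.246% of counts in untreated EpH4-AS, against 2.72% and 2.21% in untreated EpH4. The part of these markers and shares in the differences between lines was not tested. Both EpH4-AS libraries were above both EpH4 libraries in 19 of the 67 members untreated and below them in 32, against 34.7% and 42.6% of the genes with a count. With PM2.5 they were above in 12 and below in 45, against 35.6% and 42.3%.

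The families differed in direction. No H4 gene was higher in EpH4-AS and 9 of 11 were lower, both untreated and with PM2.5. The H4 sum in EpH4-AS was 0.107 times that in EpH4 untreated and 0.0963 times with PM2.5. Without H4c9, the highest H4 gene, these ratios were 0.127 and 0.175, so the lower H4 sum did not rest on this gene. H4c9 had 2.59 and 2.53 CPM in untreated EpH4-AS, against 30.9 and 23.4 CPM in untreated EpH4 (log2 fold change -3.41 ± 0.17, edgeR adjusted p = 3.9e-11). H4c14 had 0.181 and 0.190 CPM in untreated EpH4-AS, against 4.36 and 4.30 CPM in untreated EpH4 (-4.51 ± 0.38, edgeR adjusted p = 3.1e-08). In both the lines did not overlap.

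H2B ran the other way in untreated spheroids, with 7 genes higher and 3 lower in EpH4-AS. With PM2.5, 4 H2B genes were higher and 6 lower. H2bc4 had 33.1 and 28.6 CPM in untreated EpH4-AS, against 1.71 and 1.87 CPM in untreated EpH4 (4.11 ± 0.15, edgeR adjusted p = 1.2e-12), and held 26.5% and 25.2% of the histone counts of untreated EpH4-AS. The H2B sum was 3.34 times that of EpH4, and 1.70 times without H2bc4. With PM2.5 that sum was 1.30 times that of EpH4, and 0.808 times without H2bc4, so on the CPM scale the direction with PM2.5 rests on this gene. In summed RPKM the ratio without H2bc4 was 1.32, so it does not turn on that scale. H2bc13 had 7.41 and 5.94 CPM in untreated EpH4-AS, against 0.509 and 0.239 CPM in untreated EpH4 (4.12 ± 0.32, edgeR adjusted p = 9.3e-09). H2bc6 had 6.92 and 5.38 CPM in untreated EpH4-AS, against 0.691 and 0.477 CPM in untreated EpH4 (3.38 ± 0.27, edgeR adjusted p = 1.5e-08). H2bc7 had 166 counts in untreated EpH4-AS, against 4 in untreated EpH4, a ratio of 67.4 with a 95% counting interval of 25.8 to 250. H2bc21, on chromosome 3, was low in EpH4-AS, with 1.02 and 0.632 CPM untreated, against 10.1 and 8.75 CPM in untreated EpH4 (-3.49 ± 0.21, edgeR adjusted p = 5.9e-10).

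H2A and H1 were mixed, and so was H3 in untreated spheroids. In untreated spheroids 4 H2A genes were higher and 8 lower in EpH4-AS, and 1 H3 gene was higher and 6 lower. With PM2.5, 4 H2A genes were higher and 10 lower. Of 10 tested H3 genes 0 were higher and 7 lower with PM2.5, so the lack of a higher gene there was not particular to H4. H2ac12 had 5.72 and 5.25 CPM in untreated EpH4-AS, against 0 and 0.636 CPM in untreated EpH4 (4.14 ± 0.52, edgeR adjusted p = 2.4e-06). H2ac25 had 0.722 and 1.26 CPM in untreated EpH4-AS, against 11.8 and 14.2 CPM in untreated EpH4 (-3.71 ± 0.22, edgeR adjusted p = 3.3e-10). H2ac18 had 0 counts in untreated EpH4-AS and was at least 98.1-fold lower there, while its identical copy H2ac19 had 5.42 and 4.74 CPM, against 7.09 and 9.35 CPM in untreated EpH4 (-0.69 ± 0.19, edgeR adjusted p = 0.0033). Summed, the 2 copies were lower in untreated EpH4-AS by a much smaller amount than H2ac18 alone (-1.76 ± 0.11, edgeR adjusted p = 1.0e-09). H1f4 had 0.361 and 0.126 CPM in untreated EpH4-AS, against 2.54 and 2.31 CPM in untreated EpH4 (-3.27 ± 0.40, edgeR adjusted p = 2.2e-06). H1f3 went the other way, with 5.6 and 5.0 CPM, against 0.836 and 1.03 CPM in untreated EpH4 (2.5 ± 0.24, edgeR adjusted p = 9.8e-08). H1f2 was slightly higher in untreated EpH4-AS (0.30 ± 0.11, edgeR adjusted p = 0.020), a call that ended without untreated EpH4-AS replicate 1 (adjusted p = 0.122), and it was lower in EpH4-AS with PM2.5 (-1.01 ± 0.10, edgeR adjusted p = 1.8e-07). H3c13 had close levels in both lines, at 2.95 and 3.10 CPM in untreated EpH4-AS and 2.69 and 2.70 CPM in untreated EpH4, and did not pass the test (0.16 ± 0.20, edgeR adjusted p = 0.44). H3c13 was named after its values were seen. In H3c13 100% of the 50-base windows occurred also in a transcript of another gene, so its level depends on how reads were assigned.

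Histone counts were spread over fewer genes in untreated EpH4-AS. There 15 and 16 members made up 90% of the histone counts in the 2 libraries, against 25 and 21 members in untreated EpH4. With PM2.5 the numbers were 21 and 19 in EpH4-AS and 27 and 24 in EpH4. In untreated EpH4-AS 15 of the 67 members had no count in either library, against 4 in untreated EpH4. With PM2.5, 5 had none in EpH4-AS and 3 in EpH4. The total of histone counts was 2078 and 1798 in untreated EpH4-AS and 3694 and 3011 in untreated EpH4, so fewer low genes can be seen in EpH4-AS.

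Position went with the values in part. Genes on chromosome 13 summed to 198 and 165 CPM in EpH4 with PM2.5, against 82.1 and 66.5 CPM in untreated EpH4, a ratio of 2.44. The 10 genes on chromosome 3 summed to 61.8 and 57.1 CPM with PM2.5, against 38.9 and 36.5 CPM untreated, a ratio of 1.58. The 3 genes on chromosome 11, mostly H2ac25, had a ratio of 0.868 with summed levels of 11.7 and 10.7 CPM with PM2.5, against 11.8 and 14 CPM untreated. H2ac25 overlaps the gene Trim17 in the annotation. Between untreated lines, the ratio of EpH4-AS to EpH4 was 1.44 on chromosome 13, 0.358 on chromosome 3 and 0.106 on chromosome 11. The chromosome 13 ratio was 1.04 without H2bc4, a sum chosen after seeing the data. Of the 40 tested genes there 12 were higher and 19 lower in EpH4-AS, with a median log2 fold change of -0.85.

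Members with longer and shorter annotated 3′ UTRs had similar ratios of PM2.5 to untreated in EpH4, at 2.06 and 1.84, and 2.29 where no 3′ UTR is annotated. Calls were made for 13 of 19 tested members of the longer class, 9 of 23 of the shorter class and 5 of 9 without an annotated 3′ UTR. Of tested members with a stem-loop match 19 of 34 rose, and of those without 8 of 17 rose. The 33 members with under 50% shared windows, which depend least on read assignment, summed to 198 and 169 CPM in EpH4 with PM2.5, against 93.9 and 82.8 CPM untreated, and 14 of 23 tested ones rose. Gene reads of the members outside annotated exons were 2.99% and 3.33% in EpH4-AS with PM2.5 and 2.17% and 2.44% in untreated EpH4-AS, against 11.6% and 12.8% in EpH4 with PM2.5 and 12.4% and 13.5% in untreated EpH4. Over all genes these shares were 3.59% and 3.42% in EpH4-AS with PM2.5 and 3.54% and 3.39% in untreated EpH4-AS, against 12.5% and 11.4% in EpH4 with PM2.5 and 11.3% and 12.3% in untreated EpH4. The histone genes thus differed between lines in this share as genes in general did.

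Many H2A and H2B genes lie head to head, and some of their shared upstream stretches are shown as a description only. Among the 67 members, 14 pairs had start sites within 1000 bases of each other on opposite strands. Promoters of 57 members were found in the RefSeq table for GRCm38.p6, which takes 250 bases before to 50 after each start. The stretches below are the 250 bases before the start of 4 members, the first 2 chosen for their high counts and the others for their place in such pairs (H2ac6 with H2bc4, and H2bc13 with H2ac13). Capitals mark, on either strand, the motif CCAAT, the TATA box motif TATAAA, the octamer motif ATTTGCAT, and the H1 promoter motif AAACACA.
H1f2, chr13:23738557-23738806, plus strand: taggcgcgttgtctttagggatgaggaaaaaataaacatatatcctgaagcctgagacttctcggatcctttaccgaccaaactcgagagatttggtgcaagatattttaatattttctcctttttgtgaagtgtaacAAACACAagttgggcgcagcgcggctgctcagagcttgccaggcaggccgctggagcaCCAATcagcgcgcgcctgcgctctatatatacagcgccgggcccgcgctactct
H4c9, chr13:22041363-22041612, minus strand: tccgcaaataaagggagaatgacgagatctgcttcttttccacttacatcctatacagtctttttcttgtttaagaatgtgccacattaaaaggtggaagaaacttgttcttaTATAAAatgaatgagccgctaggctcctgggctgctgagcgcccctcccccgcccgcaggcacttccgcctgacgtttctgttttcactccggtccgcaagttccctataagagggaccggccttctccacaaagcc
H2ac6, chr13:23683960-23684209, minus strand: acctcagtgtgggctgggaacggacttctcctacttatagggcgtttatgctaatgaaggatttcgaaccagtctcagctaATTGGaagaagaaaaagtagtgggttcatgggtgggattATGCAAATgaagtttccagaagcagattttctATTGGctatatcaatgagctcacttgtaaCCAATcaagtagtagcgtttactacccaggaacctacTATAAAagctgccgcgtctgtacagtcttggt
H2bc13, chr13:21716184-21716433, minus strand: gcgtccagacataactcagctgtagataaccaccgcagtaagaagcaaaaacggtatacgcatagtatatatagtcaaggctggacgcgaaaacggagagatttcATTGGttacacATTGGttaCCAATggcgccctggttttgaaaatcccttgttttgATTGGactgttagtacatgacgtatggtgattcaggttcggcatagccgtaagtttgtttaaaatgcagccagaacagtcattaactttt

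CCAAT was found in 49 of the 57 windows, or 86%, against 37.9% of the windows of all 27025 genes in the table. It was in all 5 H1, 17 H2A, 14 H2B and 10 H3 windows, and in 3 of 11 H4 windows. TATAAA was in 34 of 57 (59.6%, against 14.2% of all genes). The octamer ATTTGCAT, the sequence known for binding by Oct1, was in 12 of 57 (21.1%, against 1.75%), namely 6 of 17 H2A and 6 of 14 H2B windows. AAACACA was in 8 of 57 (14%, against 7.14%), including 4 of 5 H1 windows. Both strands were searched, matches of different motifs may share bases, and a match is a description of the window only.

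Of the 14 head-to-head pairs, 6 had both genes tested. In untreated spheroids 3 of the 6 had 1 gene higher and the other lower in EpH4-AS. Over all tested genes 43.6% were called higher and 45.7% lower in this contrast, and 43.5% and 45.5% with PM2.5. Opposite calls are therefore frequent between any 2 genes, and are not particular to these pairs. In the pair H2ac6 and H2bc4, whose start sites lie 250 bases apart, H2ac6 had 0.181 and 0.190 CPM in untreated EpH4-AS, against 1.78 and 1.43 CPM in untreated EpH4 (log2 fold change -3.08 ± 0.57, edgeR adjusted p = 0.00014), while H2bc4 was higher by 4.11. In the pair H2ac12 and H2bc12, 301 bases apart, H2ac12 was higher (4.14) and H2bc12 was lower in EpH4-AS, where it had no count untreated. In the pair H2bc7 and H2ac7, 184 bases apart, H2bc7 was higher and H2ac7 was lower, again with no count in untreated EpH4-AS. The call of H2ac7 ended without untreated EpH4 replicate 1 (adjusted p = 0.0537). With PM2.5 another pair, H2bc13 (2.19 ± 0.25, edgeR adjusted p = 7.7e-07) and H2ac13 (-3.62 ± 0.57, edgeR adjusted p = 3.0e-05), was also called in opposite directions, and H2ac20 and H2bc21 on chromosome 3 were both lower in EpH4-AS in each condition. For PM2.5 over untreated, 2 of the 6 pairs in EpH4-AS had both genes with the same sign and 0 had both called. In EpH4 5 of the 6 had the same sign and 3 had both called higher, where 47 of all 51 tested members had a positive value. Pair members were named for being in a pair, and most lie outside the rule on levels. In H2ac12, H2bc12, H2bc7, H2ac7, H2bc13 and H2ac13, between 65.8% and 92.1% of the 50-base windows occurred also in a transcript of another gene. Their values and opposite calls thus depend on how reads were assigned between genes. For H2ac6 and H2bc4 this share was 14.1% and 30.6%.

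**Figure D4:**
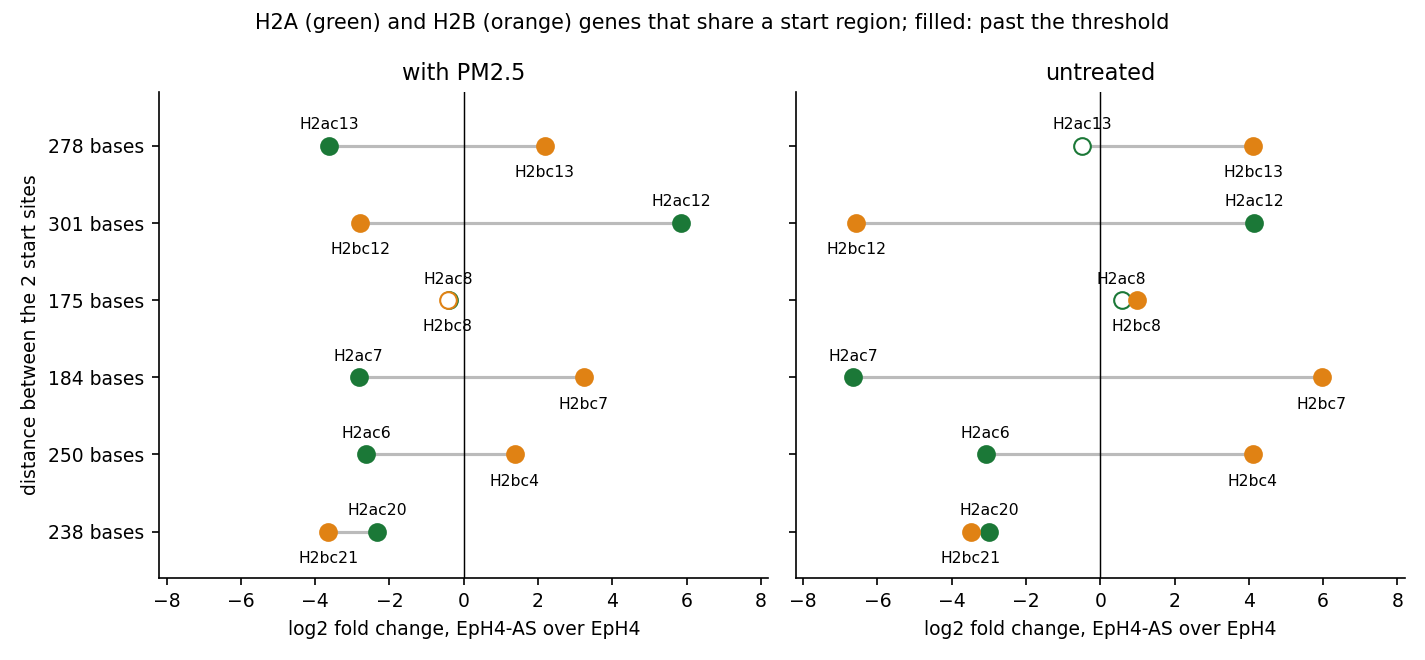
Log2 fold change of EpH4-AS over EpH4 for both genes of the 6 head-to-head pairs with both members tested, with PM2.5 (left) and untreated (right), and each row labelled with the distance between the start sites. A line joins the partners, H2A genes are green, H2B genes are orange, filled points passed the threshold, and H2bc4, H2bc7 and H2ac12 lie to the right of 0 while their partners lie to the left.

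Other genes of the histone and cell cycle machinery were read from lists chosen with earlier results of these data known. In EpH4-AS 0 of 22 genes of G2 and mitosis and 0 of 32 genes of S phase and DNA replication were called by edgeR with PM2.5, with median log2 fold changes of 0.02 and 0.00. At an unadjusted p below 0.05 these were 0 and 3 genes, and DESeq2 and limma called 0 in both lists. In EpH4 22 of the 22 rose, with a median of 1.23, and 26 of the 32 rose, with a median of 0.41. The test of the difference between lines called 22 of 22 and 15 of 32 as less positive in EpH4-AS. In untreated spheroids 20 of the 22 mitosis genes were higher and 0 lower in EpH4-AS than in EpH4 (median 1.91, none lower at an unadjusted p below 0.05), and 19 of the 32 S phase genes were higher and 8 lower (median 0.63), while the median of the histone members was negative. Mki67, a marker of cycling cells, had 86.8 and 87.3 CPM in EpH4-AS with PM2.5, against 82.5 and 79.1 CPM in untreated EpH4-AS (0.11 ± 0.12, edgeR adjusted p = 0.65). It had 188 and 182 CPM in EpH4 with PM2.5, against 92.7 and 62.4 CPM in untreated EpH4 (1.25 ± 0.12, edgeR adjusted p = 7.8e-06). The difference between these effects was -1.14 ± 0.17 (edgeR adjusted p = 0.00062), and the differences were -1.91 for Cenpf, a kinetochore protein, -1.55 for Ube2c, the ubiquitin-conjugating enzyme of the anaphase-promoting complex, and -1.26 for Cenpe, a mitotic kinesin. In the S phase list they were -0.80 for Pole, the catalytic subunit of DNA polymerase epsilon, -1.06 for E2f8, a repressor of the E2F family, and -1.17 for Rrm2, a subunit of ribonucleotide reductase. Pcna, the sliding clamp of DNA polymerases, missed the threshold in EpH4, with 159 and 166 CPM with PM2.5, against 153 and 131 CPM untreated (0.19 ± 0.07, edgeR adjusted p = 0.0505).

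Genes that act on the histone mRNA itself were called less often with PM2.5 in EpH4 than the mitosis and S phase genes. Over all tested genes 6.39% were called higher and 4.75% lower in EpH4-AS, and 14.3% and 12.9% in EpH4. The counts of this list and of those below were not tested against these shares, and with so few genes most cannot be told apart from them. Of 11 genes of 3′ end processing and stem-loop binding, 1 rose and 1 fell in EpH4-AS, and 3 rose and 1 fell in EpH4. Slbp had 21.9 and 25.7 CPM in EpH4-AS with PM2.5, against 23.7 and 23.3 CPM in untreated EpH4-AS, and the groups overlapped (0.02 ± 0.10, edgeR adjusted p = 0.95). It had 40.4 and 42.1 CPM in EpH4 with PM2.5, against 35.3 and 31.0 CPM in untreated EpH4 (0.31 ± 0.08, edgeR adjusted p = 0.0099), a call that ended without untreated EpH4 replicate 2 (adjusted p = 0.077). Npat, a coactivator of histone gene transcription, did not pass the test in EpH4 (0.07 ± 0.05, edgeR adjusted p = 0.36). Sympk, a scaffold of the cleavage complex, rose by 0.24 on the log2 scale in EpH4-AS (edgeR adjusted p = 0.011) and fell by 0.21 in EpH4 (edgeR adjusted p = 0.0093), with a difference of 0.46 ± 0.08 (edgeR adjusted p = 0.0015). Its call in EpH4-AS ended without untreated EpH4-AS replicate 2 (adjusted p = 0.111), and in EpH4 without untreated EpH4 replicate 2 (adjusted p = 0.101). The difference was -0.35 for Cpsf2, a subunit of the cleavage complex, a call that ended without untreated EpH4-AS replicate 1 (adjusted p = 0.0848). It was -0.26 for Casp8ap2, which encodes the histone pre-mRNA processing factor FLASH and was not called (edgeR adjusted p = 0.054).

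In the list of histone mRNA decay, 0 of 6 genes were called in EpH4-AS by edgeR, with 1 at an unadjusted p below 0.05 and none by DESeq2 or limma. In EpH4 0 rose and 1 fell, and the difference between lines was 0.29 for Upf1, an RNA helicase, 0.33 for Eri1, an exonuclease that acts on the stem-loop, both called, and -0.08 for Tut7, not called. Of 12 genes of poly(A) tail binding and canonical polyadenylation, 0 rose and 1 fell in EpH4-AS, and 1 rose and 2 fell in EpH4. Here the difference was 0.31 for Nudt21, 0.29 for Fip1l1 and -0.34 for Cstf1, 3 genes that encode subunits of the polyadenylation machinery, and all 3 were called. Of 14 histone chaperones 1 rose and 0 fell in EpH4-AS and 4 rose and 0 fell in EpH4, and the difference was -0.36 for Hat1, an acetyltransferase of new histones, and -0.56 for Chaf1a, a subunit of chromatin assembly factor CAF-1, both called, and -0.34 for Chaf1b, another CAF-1 subunit, not called. Every one of these called differences, from Upf1 to Chaf1a, ended in at least 1 fit that left out a library, with adjusted p up to 0.149 for Cstf1 without untreated EpH4-AS replicate 1.

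Of 11 replication-independent histone variants, 0 rose and 1 fell in EpH4-AS, and 6 rose and 0 fell in EpH4. Most of the 11 are known to be made throughout the cell cycle, largely from polyadenylated mRNAs (H2ax is also known to give a stem-loop form). Cenpa, also on this list and named after its values were seen, had 372 and 327 counts in EpH4 with PM2.5, against 170 and 113 untreated. H2ax, the variant phosphorylated at DNA breaks, had 22.2 and 21.2 CPM in EpH4 with PM2.5, against 16.8 and 12.8 CPM in untreated EpH4 (0.55 ± 0.10, edgeR adjusted p = 0.0016), and its effect differed between lines by -0.45. The difference was -0.42 for H2aj, an H2A variant, and -0.30 for H3f3b, which encodes the H3.3 variant, both called. All 3 of these differences lost their call in at least 1 fit that left out a library, with adjusted p up to 0.23 for H2aj without untreated EpH4-AS replicate 1. H2az1 did not pass the test in EpH4 (0.15 ± 0.06, edgeR adjusted p = 0.072), and neither did H1f0, the linker histone of resting cells (-0.04 ± 0.05, edgeR adjusted p = 0.61). In EpH4-AS H1f0 fell by 0.26 on the log2 scale (edgeR adjusted p = 0.0072), a call that ended without untreated EpH4-AS replicate 1 (adjusted p = 0.132).

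**Figure D5:**
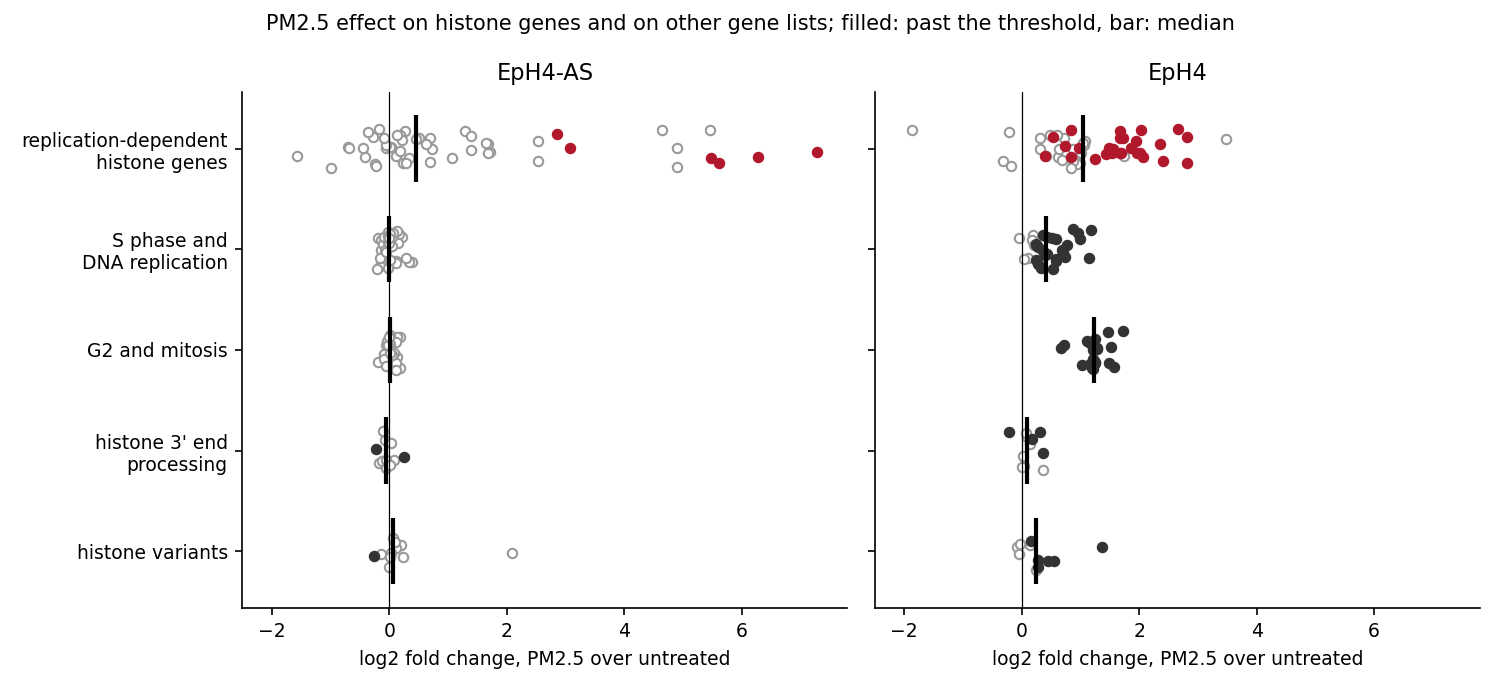
Log2 fold change of PM2.5 over untreated for each tested gene of the histone set and of 4 related lists, in EpH4-AS (left) and in EpH4 (right), with filled points past the threshold and a bar at the median. In EpH4 the medians of the histone genes, of G2 and mitosis and of S phase lie at 1.04, 1.23 and 0.41.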

How the data were processed

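The deposited table holds raw counts per gene for 8 libraries of poly(A)-selected RNA, made with a stranded mRNA ligation kit per the labels' protocols. The build is GRCm39 per the submitters' processing notes, while no source used here names the aligner, counter or annotation. The authors also deposited RPKM values and, per library, counts of all gene reads and of exon reads. The members and the related gene lists were chosen with earlier results of these data known.

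Raw counts were tested with edgeR 4.0.16 (R 4.3.3): TMM scaling, filterByExpr (13716 of 25413 genes kept), 1 model of 4 groups with 4 residual degrees of freedom, a two-sided quasi-likelihood F test, and Benjamini-Hochberg adjustment over all tested genes, with a threshold of 0.05. The 5 contrasts were PM2.5 against untreated in each line, EpH4-AS against EpH4 in each condition, and the difference of the PM2.5 effects. Standard errors were taken as the log2 fold change divided by the square root of F. The fit was tested on simulated counts. Single-gene levels are TMM-normalised CPM and sums are CPM of all counted reads. In the text a gene with 0 counts in a group is given as counts, with a floor of 3 counts over the group, and intervals are exact 95% intervals.

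Members averaging at least 5 CPM in a group were given per library, at most 5 per family. From each related list up to 3 genes with the smallest p in the difference between lines were named, and Slbp, Npat, Pcna, Mki67, H2ax, H2az1 and H1f0 always. Transcript features came from GENCODE M21 on GRCm38, matched by gene identifier, and promoters from RefSeq on GRCm38.p6. Alternatives were limma 3.58.1 on log2 RPKM, DESeq2 1.42.0, other scalings and filters, a replicate block, 2 groups only, each library left out, and identical copies summed.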

Additional observations from a re-analysis of the deposited data

Results flagged for a closer look

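The effect of PM2.5 differed between EpH4-AS and EpH4, by the test of the difference itself (edgeR adjusted p below 0.05), for 12 of the 51 tested histone genes, 2 with a positive and 10 with a negative difference, against 7.6% and 6.49% of all tested genes. Values are log2 differences, the effect in EpH4-AS minus that in EpH4. The difference was negative for H2ac13 (-3.13), H2bc7 (-2.73), H2bc4 (-2.73), H2bc3 (-2.45), H2bc6 (-2.18), H2bc13 (-1.93), H2ac4 (-1.62), H1f3 (-1.50), H2bc8 (-1.41) and H1f2 (-1.30). It was positive for H2ac18 (6.44) and H4c18 (5.32), whose size depends on the prior count because untreated EpH4-AS had 0 counts. With identical copies summed, neither pair was called, and H2ac18 plus H2ac19 had a negative difference (-0.46).

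Of the genes named from related lists, those with the same kind of difference were Cenpf (-1.91), Ube2c (-1.55), Cenpe (-1.26), Rrm2 (-1.17), Mki67 (-1.14), E2f8 (-1.06) and Pole (-0.80). The others were Chaf1a (-0.56), H2ax (-0.45), H2aj (-0.42), Hat1 (-0.36), Cpsf2 (-0.35), Cstf1 (-0.34), H3f3b (-0.30), Fip1l1 (0.29), Upf1 (0.29), Nudt21 (0.31), Eri1 (0.33) and Sympk (0.46). Over histone and list genes named here, 12 of 31 kept this call whichever library was left out, and 19 lost it in at least 1 fit.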

How the results depend on the processing

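No called histone gene changed sign in the fits on single genes. With identical copies summed, an alternative chosen after seeing the data, the difference between lines for H2ac18 turned to -0.46 for H2ac18 plus H2ac19. With PM2.5 in EpH4-AS DESeq2's Wald test called 0 members and limma on log2(RPKM + 0.1) called 12, against 6 in the fit reported, and leaving out 1 library gave 0 to 6. In EpH4 DESeq2 called 16, against 27, and leaving out 1 library gave 20 to 28. For the difference between lines DESeq2 called 7, against 12, and leaving out 1 library gave 4 to 13. The cause of these shifts was not tested. The replicate numbers did not pair the libraries (correlations of deviations from -0.101 to 0.065). A fit with the replicate block called 27, 4, 41, 43 and 9 members in EpH4, in EpH4-AS, between untreated lines, between lines with PM2.5 and for the difference, against 27, 6, 41, 43 and 12.

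Sums depended on the unit and on the highest member of each family. As log2 ratios of EpH4-AS over EpH4 untreated, summed RPKM gave 0.14 for H2A (the sign turned), 2.31 for H2B, -0.027 for H3 and -2.96 for H4, and TMM-normalised CPM gave -0.72 for H2A. With PM2.5 the log2 ratios from summed RPKM were -0.63 for H2A, 0.74 for H2B, -0.78 for H3 and -3.05 for H4. Without the highest member the untreated log2 ratio was 0.67 for H1, 0.76 for H2B, -0.77 for H3 and -2.98 for H4. With PM2.5 this log2 ratio was -0.31 for H2B (the sign turned), -1.60 for H3 and -2.51 for H4. For PM2.5 over untreated, the log2 ratio from summed RPKM was 0.10 for H2A in EpH4-AS. Without the highest member the log2 ratio of PM2.5 over untreated was 1.25 for H4 in EpH4-AS, and 0.97 for H2B and 1.01 for H3 in EpH4.

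Signs turned for some PM2.5 values in EpH4-AS that had not passed the test. Leaving out 1 library gave -0.0033 to 0.27 for H1f2, -0.11 to 0.34 for H2ac19, -0.18 to 0.077 for H2bc4 and -0.091 to 0.14 for Slbp, and Slbp was -0.0075 with library totals and -0.015 and -0.017 in limma with pseudocounts of 1 and 0.1. Most members were low, and 2 libraries a group limit what can be told apart.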
